A study of Mus musculus with 14 samples.

Results

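Transcripts of 4 receptors of the EGF receptor family (*Egfr*, *Erbb2*, *Erbb3*, and *Erbb4*) and of 6 of their ligands (*Nrg1*, *Nrg2*, *Nrg3*, *Btc*, *Hbegf*, and *Ereg*) were followed across control nerve tissue and plexiform neurofibromas (PNs), benign nerve sheath tumors. The 10 genes were taken by symbol from a table of 24062 genes, and each of them was a row of it. The 14 libraries came from control dorsal root ganglia (DRGs) with nerves of mice labelled *Nf1fl/fl* (n = 3; DRG3, DRG4, and DRG5), from slow-growing PNs (n = 5; 1079, 1198A, 1202, 1203, and 1206), and from fast-growing PNs (n = 6; 1053, 1071, 1179, 1191, 1214, and 1216) of mice labelled *DhhCre;Nf1fl/fl*. All groups carried floxed *Nf1* alleles on a mixed C57BL/6, I-129, and FVBN background, and no group was given a drug. *Dhh-Cre* is active in the Schwann cell lineage, so other cells of a PN keep *Nf1*. A PN was slow growing where its MRI volume changed by less than 5 mm3 in 2 months and fast growing where it increased by more than 35 mm3. These mice were 9 months old according to the Methods, whereas a figure legend states 7 months. No sex or batch was given per library, and nothing stated that the control tissues came from separate mice, so p-values measure the spread between these libraries.

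The EGF receptor family signals as pairs of receptors, and most of its ligands are made as membrane-anchored precursors that proteases cut free. Egfr binds EGF-type ligands such as betacellulin (Btc), heparin-binding EGF-like growth factor (Hbegf), and epiregulin (Ereg). Among the neuregulins, Nrg1 and Nrg2 bind Erbb3 and Erbb4 and Nrg3 binds Erbb4. Erbb4 also binds Btc, Hbegf, and Ereg, Erbb2 has no known ligand of its own, and Erbb3 has little kinase activity. In peripheral nerve, Nrg1 on axons acts on Erbb2 and Erbb3 in Schwann cells and controls their survival, migration, and myelination, and the pathway feeds Ras, the protein that neurofibromin (the Nf1 product) turns off.

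What the 6 ligands share is the EGF-like module, a short stretch with 6 cysteines that contacts the receptor. Its coding sequence is shown for 4 ligands, 5′ to 3′ on the strand of the transcript with introns removed, from the GENCODE M21 transcripts of mm10. Capitals mark the 6 cysteine codons. In each line below the module spans 2 exons, and the 2 versions of *Nrg1* share their first exon and differ in the second.
Nrg1 version 1: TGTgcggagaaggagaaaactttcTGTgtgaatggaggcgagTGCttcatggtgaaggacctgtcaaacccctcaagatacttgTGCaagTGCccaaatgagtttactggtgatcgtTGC
Nrg1 version 2: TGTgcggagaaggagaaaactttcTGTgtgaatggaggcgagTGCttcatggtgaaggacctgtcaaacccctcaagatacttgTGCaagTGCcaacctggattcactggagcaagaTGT
Nrg3: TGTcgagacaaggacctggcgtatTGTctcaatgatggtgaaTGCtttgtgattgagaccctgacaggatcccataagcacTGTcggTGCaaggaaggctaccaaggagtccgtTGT
Btc: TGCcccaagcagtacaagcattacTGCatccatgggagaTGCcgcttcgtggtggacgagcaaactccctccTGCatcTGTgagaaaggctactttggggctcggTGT
Ereg: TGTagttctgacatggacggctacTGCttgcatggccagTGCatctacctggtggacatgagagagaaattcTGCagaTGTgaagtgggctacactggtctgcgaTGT

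The *Nrg1* versions lie at chr8:31837698-31849398 and chr8:31838298-31849398 on the minus strand, are annotated in 7 and 3 coding transcripts, and match at 108 of 120 bases (90.0%). The *Nrg3* module (117 bases) lies at chr14:38668261-39012054 on the minus strand, *Btc* at chr5:91362421-91366197 on the minus strand, and *Ereg* at chr5:91088496-91089111 on the plus strand. *Btc* and *Ereg* have the same spacing between cysteines, with 7, 4, 10, 1, and 8 codons between neighbors, and match at 57 of 108 bases (52.8%). The neuregulins have a longer middle stretch, with 13 codons between the middle pair of cysteines in *Nrg1* and 12 in *Nrg3*. Counts per gene add up all versions, so the 2 forms of *Nrg1* could not be told apart in the values that follow.

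In mm10 the receptor genes are *Egfr* on chromosome 11 (16752203 to 16918158), *Erbb2* on chromosome 11 (98412470 to 98437716), *Erbb3* on chromosome 10 (128567523 to 128589652), and *Erbb4* on chromosome 1 (68032186 to 69108059). Among the ligands, *Nrg1* lies on chromosome 8 (31814551 to 32884029), *Nrg3* on chromosome 14 (38368952 to 39473088), *Btc* on chromosome 5 (91357261 to 91402994), and *Ereg* on the same chromosome (91074622 to 91093646). *Nrg2* and *Hbegf* are both on chromosome 18. Exons on the opposite strand share 9 bases with *Erbb2* (*Mien1*), 482 bases with *Nrg1* (Gm26578), and 141 bases with *Ereg* (Gm19610), and the last 2 are not rows of the count table. Without knowledge of strand in the counting, reads of these partners cannot be told apart from reads of *Erbb2*, *Nrg1*, and *Ereg* there.

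Libraries held 9596773 to 17594164 counts on genes, and 3 counts correspond to 0.167 to 0.313 CPM (counts scaled to a common library size), taken as the floor of detection. The *Nf1* level was 129 to 228 CPM in controls, 225 to 294 CPM in slow-growing PNs, and 225 to 276 CPM in fast-growing PNs, a count over the whole gene and all cells that does not check the deletion. Schwann cell markers were present in each library, with summed levels of 4667 to 14080 CPM in controls, 8823 to 22530 CPM in slow-growing PNs, and 8192 to 12550 CPM in fast-growing PNs. Sensory neuron markers (14 genes) summed to 1740 to 6324 CPM in controls and 2651 to 8722 CPM in 5 of the 6 fast-growing PNs, and to 35.7 CPM in the fast-growing PN 1191. The slow-growing PN 1203 had the highest neuron sum, 14880 CPM. Skeletal muscle markers (15 genes) summed to 5453 to 21070 CPM in controls, 53.8 to 5315 CPM in slow-growing PNs, and 182 to 3728 CPM in fast-growing PNs, and fat markers (13 genes) to 3752 to 5196, 20.7 to 2259, and 17.8 to 215 CPM. In whole tissue, fewer cells of a type and less RNA per cell cannot be told apart.

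To determine which of these transcripts differ between PNs and control tissue, the 11 PNs were compared with the 3 controls. *Erbb3*, the neuregulin receptor, was 4.44-fold higher in PNs, its partner *Erbb2* was 2.84-fold higher, and the EGF-type ligand *Hbegf* was 3.53-fold higher. These 3 of 10 genes passed an adjusted p under 0.05, where 26.3% of the 16283 genes tested did. *Egfr*, *Erbb4*, *Nrg1*, *Nrg2*, *Nrg3*, *Btc*, and *Ereg* did not pass, and none of the 10 genes was called lower. Only for *Erbb3* did every PN lie above every control, as for 8.51% of all genes tested. With DESeq2, 4 of the 9 genes other than *Ereg* passed (the same 3 and *Btc*), where 31.8% of all genes did. *Ereg* passed too, but it met the low-count filter only through its counts in fast-growing PNs, so its call adds no support. Limma-voom called 2 of the 10 genes, *Erbb2* and *Erbb3*, beside 26.4% of all genes. It gave an adjusted p of 0.0976 for *Hbegf*, 0.273 for *Btc*, and 0.424 for *Ereg*. The median log2 fold change of the 10 genes was 1.16, and that of all genes was 0.10.

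*Erbb3* measured 35.5, 21.6, and 15.5 CPM in the controls DRG3, DRG4, and DRG5. It measured 69.0, 168, 46.3, 40.8, and 85.2 CPM in the slow-growing PNs 1079, 1198A, 1202, 1203, and 1206, and 120 to 147 CPM (median, 130) in the fast-growing PNs. The fast-growing PNs were close to each other, with a coefficient of variation of 7.28%, whereas the slow-growing PNs ranged from just above the highest control to the highest level of all 14 libraries, in 1198A. The log2 fold change of *Erbb3* in PNs versus controls was 2.15 (SE 0.45, adjusted p = 0.0031).

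*Erbb2*, which pairs with the ligand-bound receptors, measured 26.7, 14.2, and 11.4 CPM in DRG3, DRG4, and DRG5. In slow-growing PNs it measured 39.6, 50.1, 28.3, 20.1, and 50.9 CPM in the same order of libraries as above, and in fast-growing PNs 46.2 to 68.3 CPM (median, 62.7). Of the 11 PNs, 10 were above the highest control, and 1203 was below it. The log2 fold change was 1.51 (SE 0.37, adjusted p = 0.0082), and without DRG4 or without DRG5 the adjusted p was 0.0535 or 0.0647, in fits that called 14.9% or 12.5% of all genes.

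*Egfr*, the receptor for EGF-type ligands, measured 65.0, 35.6, and 30.2 CPM in DRG3, DRG4, and DRG5. It measured 47.9, 62.0, 60.9, 16.6, and 67.0 CPM in the slow-growing PNs and 45.5 to 161 CPM (median, 96.5) in the fast-growing PNs. The control DRG3 lay within the range of both PN groups, and 1203 lay below all controls. Its log2 fold change in PNs versus controls, 0.82 (SE 0.49, adjusted p = 0.240), was not distinguishable from the spread between libraries.

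*Erbb4*, the second neuregulin receptor, was the lowest receptor transcript, with 8.15, 5.50, and 5.84 CPM in DRG3, DRG4, and DRG5. In slow-growing PNs it measured 9.26, 11.3, 8.17, 6.23, and 9.93 CPM, and in fast-growing PNs 2.22 to 7.05 CPM (median, 5.41). Its log2 fold change in PNs versus controls was 0.05 (SE 0.37, adjusted p = 0.938), and its sign depended on the fit.

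**Figure D1:**
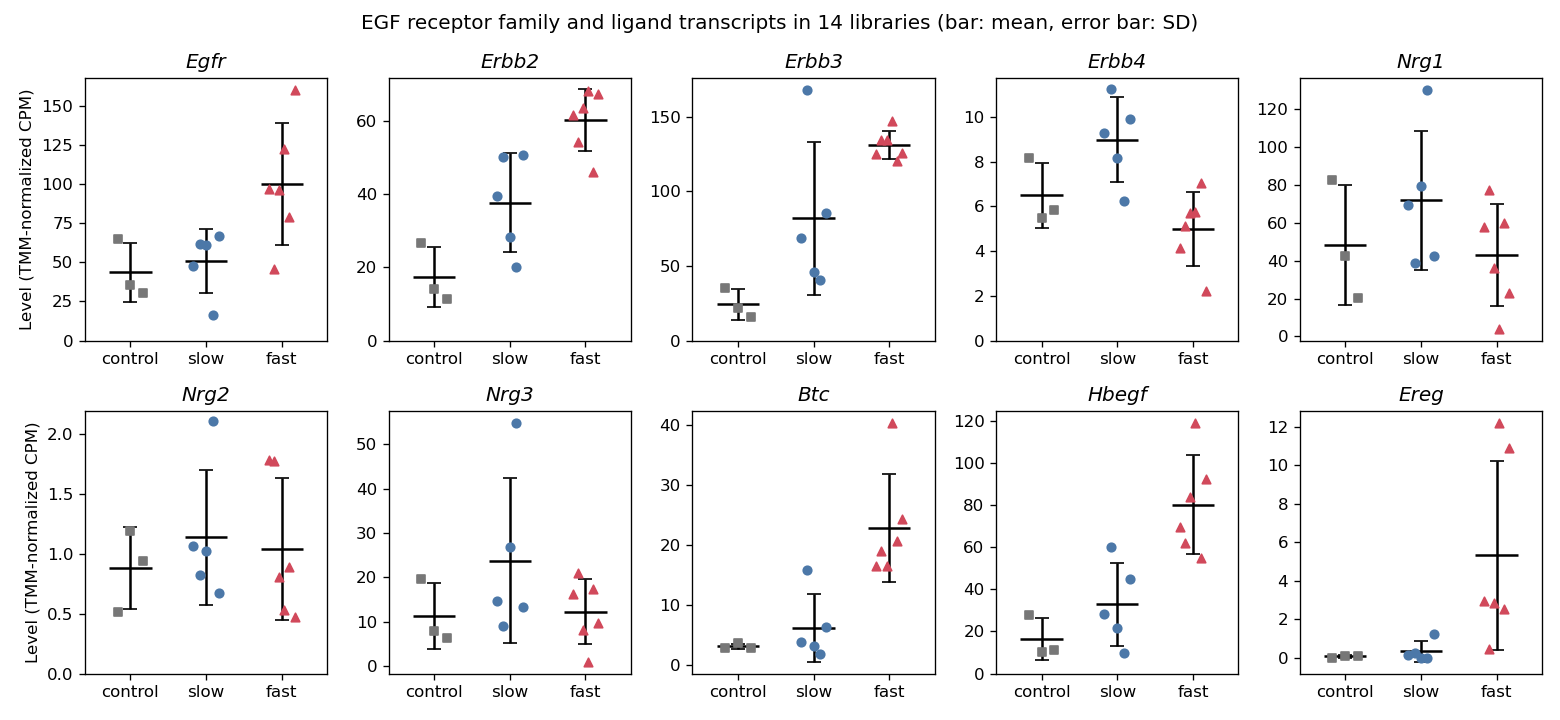
Level (TMM-normalized CPM, linear axes that differ between panels) of each of the 10 transcripts in control, slow-growing, and fast-growing libraries, 1 point per library, with the mean as a bar and the SD as an error bar. The 6 fast-growing PNs sit above the 3 controls for *Erbb2*, *Erbb3*, *Btc*, *Hbegf*, and *Ereg*, as for 17.8% of all genes tested. *Ereg* met the low-count filter only through its counts in fast-growing PNs. The groups overlap for the remaining 5 genes.

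Among the EGF-type ligands, *Hbegf*, which binds *Egfr* and *Erbb4*, measured 27.7, 10.2, and 11.4 CPM in DRG3, DRG4, and DRG5. It measured 28.3, 60.1, 21.7, 9.52, and 44.8 CPM in the slow-growing PNs and 54.7 to 119 CPM (median, 76.7) in the fast-growing PNs. The 1203 library was below all controls, and 1202 was within their range. The log2 fold change in PNs versus controls was 1.82 (SE 0.63, adjusted p = 0.0453), and this call held in 5 of the 14 fits that left out 1 library. Over those fits the log2 fold change was 1.57 to 2.43, with the highest value without DRG3.

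*Btc*, a ligand of *Egfr* and *Erbb4*, measured 2.74, 3.57, and 2.81 CPM in DRG3, DRG4, and DRG5. In slow-growing PNs it measured 3.80, 15.8, 3.06, 1.74, and 6.27 CPM, and in fast-growing PNs 16.4 to 40.3 CPM (median, 19.9). Slow-growing PNs thus spread from below the controls, in 1203, to near the lowest fast-growing PN, in 1198A. The log2 fold change in PNs versus controls was 2.31 (SE 0.83, adjusted p = 0.0528), and it passed in 4 of the 14 fits that left out 1 library.

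*Ereg*, a low-affinity ligand of *Egfr* and *Erbb4*, was below the floor of 3 counts in each control, with 0, 0.092, and 0.10 CPM in DRG3, DRG4, and DRG5, or 2 counts over the 3 libraries. It measured 0.15, 0.23, 0, 0, and 1.25 CPM in the slow-growing PNs (18 counts, 13 of them in 1206) and 0.48 to 12.2 CPM (median, 2.90) in the fast-growing PNs (456 counts). All 6 fast-growing PNs were above all controls, with 1191 and 1216 the highest. The ratio of the summed counts per library size was 83.5 for fast-growing PNs versus controls (95% interval, 23.0 to 692), 5.03 for slow-growing PNs versus controls (1.20 to 44.7), and 16.6 for fast- versus slow-growing PNs (10.4 to 28.3). Without 1206 they were 1.70 (5 against 2 counts; 0.279 to 17.9) for slow-growing PNs versus controls and 49.0 (20.8 to 152) for fast- versus slow-growing PNs, an alternative chosen after seeing the data. These intervals cover counting error only. The fitted log2 fold change in PNs versus controls, 5.39 (SE 2.14, adjusted p = 0.0763), depends on the small count that edgeR adds to each library.

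The 3 neuregulins did not pass in any of the 4 comparisons. *Nrg1*, the axonal signal to Schwann cells, measured 82.6, 42.4, and 20.1 CPM in DRG3, DRG4, and DRG5, 69.3, 38.6, 79.4, 130, and 42.4 CPM in the slow-growing PNs, and 4.08 to 77.2 CPM (median, 47.0) in the fast-growing PNs. *Nrg3*, a ligand of *Erbb4* made mainly by neurons, ranged from 6.25 to 19.7 CPM in controls, 9.09 to 54.8 CPM in slow-growing PNs, and 0.98 to 21.1 CPM in fast-growing PNs. *Nrg2* was low in all groups, from 0.47 to 2.11 CPM over the 14 libraries. The groups overlapped for each of the 3 genes in each comparison. The log2 fold changes in PNs versus controls were 0.20 (SE 0.64, adjusted p = 0.849) for *Nrg1*, 0.28 (SE 0.48, adjusted p = 0.692) for *Nrg2*, and 0.61 (SE 0.73, adjusted p = 0.569) for *Nrg3*.

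Levels of *Nrg1* and *Nrg3* moved with the sensory neuron markers. Within each group, *Nrg1* had the same order of libraries as the neuron sum, and *Nrg3* had it apart from the fast-growing PNs 1179 (8.12 CPM, neuron sum 3609 CPM) and 1216 (9.61 CPM, neuron sum 2651 CPM). The library with the lowest neuron sum, 1191 (35.7 CPM), had the lowest *Nrg1* (4.08 CPM) and the lowest *Nrg3* (0.98 CPM). The library with the highest, 1203 (14880 CPM), had the highest *Nrg1* (130 CPM) and the highest *Nrg3* (54.8 CPM). Among controls, the neuron sums of 6324, 2939, and 1740 CPM in DRG3, DRG4, and DRG5 stood beside *Nrg1* levels of 82.6, 42.4, and 20.1 CPM. How much of a DRG each library contained was not recorded in the labels, and the part of the neuron content in these levels was not tested. Without 1191, the log2 fold change of *Nrg1* in fast-growing PNs versus controls was 0.0025 in place of -0.24, and that of *Nrg3* was 0.29 in place of 0.05.

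**Figure D2:**
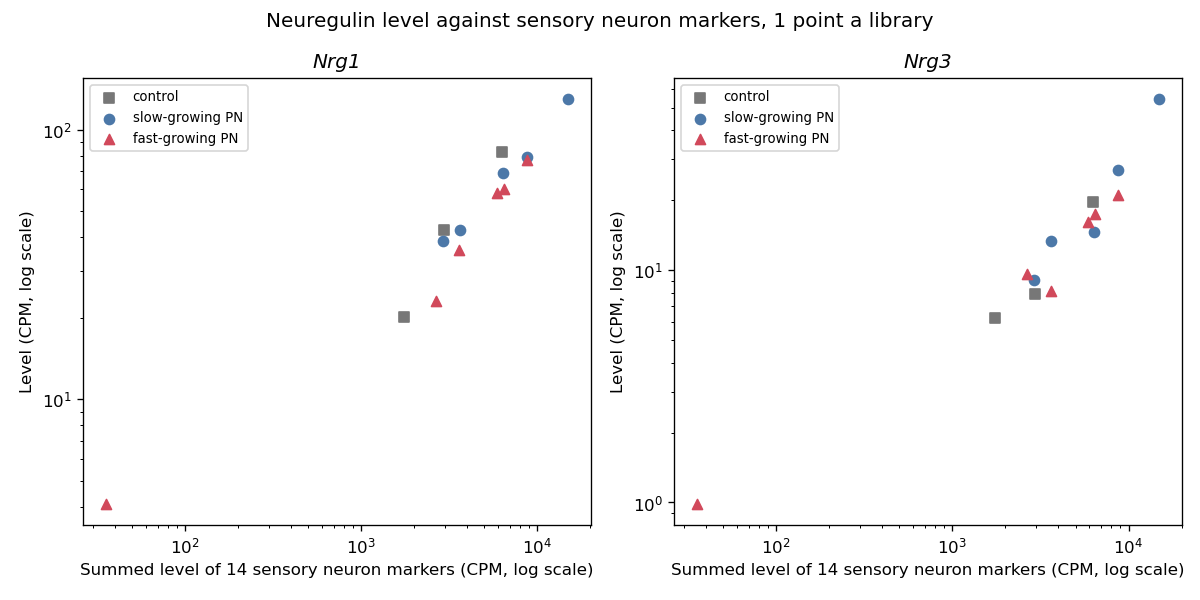
Level of *Nrg1* and *Nrg3* (CPM, log axis) against the summed level of 14 sensory neuron markers (CPM, log axis), 1 point per library with its group as color and shape. Within each of the 3 groups, libraries with more neuron marker RNA have more *Nrg1* and, apart from the fast-growing PNs 1179 and 1216, more *Nrg3*, and the fast-growing PN 1191 lies alone at the lower left with a neuron sum of 35.7 CPM.

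To separate the growth groups, each growth group was set against the same 3 controls. In slow-growing PNs, *Erbb3* was 3.26-fold (log2, 1.71; SE 0.52; adjusted p = 0.0694) and *Erbb2* was 2.10-fold (log2, 1.07; SE 0.40; adjusted p = 0.115) the control level. None of the 9 genes tested passed with edgeR, where 11.3% of 15714 genes did, and 2 of the 9 genes, *Erbb2* and *Erbb3*, had an unadjusted p under 0.05, as had 30.3% of all genes. With DESeq2 the same 2 passed, where 22.5% of all genes did. *Ereg* was too low to be tested. *Erbb3* was above every control in each slow-growing PN, as for 11.6% of all genes tested. *Erbb2* (adjusted p = 0.0446) and *Erbb3* (adjusted p = 0.0383) each passed in only 1 of the 8 fits that left out 1 library. This was the fit without 1203, which had the lowest level of both genes in its group, and 12.5% of all genes passed there. Over the 8 fits the lowest log2 fold change was 0.84 for *Erbb2* and 1.27 for *Erbb3*. The highest adjusted p was 0.362 for *Erbb2* and 0.253 for *Erbb3*. The remaining log2 fold changes were 0.17 (SE 0.44) for *Egfr*, 0.41 (SE 0.26) for *Erbb4*, 0.51 (SE 0.51) for *Nrg1*, 0.30 (SE 0.50) for *Nrg2*, 1.01 (SE 0.64) for *Nrg3*, 0.96 (SE 0.68) for *Btc*, and 0.96 (SE 0.59) for *Hbegf*. Without 1198A the value of *Btc* was 0.23.

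In fast-growing PNs, the receptors *Erbb2* and *Erbb3* and the EGF-type ligands *Btc* and *Hbegf* were higher than in controls. *Erbb3* was 5.20-fold higher (log2, 2.38; SE 0.23; adjusted p = 0.000104) and *Erbb2* was 3.33-fold higher (log2, 1.73; SE 0.27; adjusted p = 0.00119). *Btc* was 7.16-fold higher (log2, 2.84; SE 0.36; adjusted p = 0.000399), and *Hbegf* was 4.71-fold higher (log2, 2.24; SE 0.39; adjusted p = 0.00229). *Ereg* passed too, with a fitted log2 fold change of 6.16 (SE 1.40, adjusted p = 0.00884). In each comparison where it was tested it passed the low-count filter only through its counts in fast-growing PNs, so its calls add no support. Limma-voom, which called 29.9% of all genes, gave it an adjusted p of 0.176. Without *Ereg*, 4 of the other 9 genes passed, beside 31.4% of the 16037 genes tested, and limma-voom called the same 4. DESeq2, which called 36.6% of all genes, called 5 of the other 9, the same 4 and *Egfr* (adjusted p = 0.0149), and *Ereg*. The 4 genes and *Ereg* had all fast-growing PNs above all controls, as for 17.8% of all genes. Each of these edgeR calls held in all 9 fits that left out 1 library.

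*Egfr* was 2.21-fold the control level in fast-growing PNs (log2, 1.15; SE 0.39; adjusted p = 0.0517). It passed in 2 of the 9 fits that left out 1 library. These were the fits without DRG3 (log2, 1.52; adjusted p = 0.0298) and without the fast-growing PN 1071 (log2, 1.30; adjusted p = 0.0139), which called 31.9% and 31.1% of all genes. Over the 9 fits the log2 fold change of *Egfr* was 0.97 to 1.52 and its adjusted p was 0.0139 to 0.169. *Erbb4* had a log2 fold change of -0.45 (SE 0.32, adjusted p = 0.330), and the neuregulins had values of -0.24 (SE 0.70) for *Nrg1*, 0.17 (SE 0.54) for *Nrg2*, and 0.05 (SE 0.70) for *Nrg3*.

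The calls against controls stood beside the difference in skeletal muscle and fat markers given above. In fast-growing PNs versus controls, 13 of 15 muscle markers and 13 of 13 fat markers were lower. Also in that comparison, 6 of 7 fibroblast markers (median log2, 1.41) and 2 of 5 perineurial markers (0.60) were higher, and 3 of 6 endothelial markers (-0.83) were lower, beside 31.4% of all genes called. In the satellite glial list 2 of 4 were higher and 1 was lower (0.94), in the pericyte and smooth muscle list 1 of 5 was higher and 2 were lower (-0.21), and 1 of 4 neutrophil and 1 of 4 mast cell markers were lower. None of the 14 sensory neuron, 6 macrophage, and 5 lymphocyte markers tested passed. The part of these markers in the 10 genes was not tested. When the mean muscle and fat marker scores were added to the fit as covariates, 0 of the 10 genes passed in PNs versus controls, where 429 of all genes did, and 0 passed in fast-growing PNs versus controls, where 0 of all genes did. In that fit of PNs versus controls the log2 fold changes were 0.98 (SE 0.59) for *Erbb3*, 0.49 (SE 0.49) for *Erbb2*, and -0.04 (SE 0.84) for *Hbegf*. The muscle scores (mean log2 level) were 7.97 to 9.92 in controls and at most 7.89 in any PN, and the fat scores were 7.31 to 7.58 and at most 6.01. Since both scores separate the controls from all 11 PNs, tissue content and group cannot be told apart in any comparison with controls, and the fitted values with covariates carry the same limit.

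The direct comparison of fast-growing with slow-growing PNs contains no control. Expression of *Btc* was 3.70 times as high in fast-growing PNs (log2, 1.89; SE 0.51; adjusted p = 0.0734), and each fast-growing PN was above each slow-growing PN, as for 2.13% of all genes tested. None of the 10 genes passed with edgeR, where 1.27% of 15465 genes did. Unadjusted p was under 0.05 for *Egfr*, *Erbb2*, *Erbb4*, *Btc*, and *Hbegf*, as for 20.4% of all genes. With DESeq2, 3 of the 9 genes other than *Ereg* passed (*Erbb4*, *Btc*, and *Hbegf*), where 10.3% of all genes did. *Ereg* met both thresholds too, but it met the low-count filter only through its counts in fast-growing PNs, so this adds no support. The log2 difference was 4.01 (SE 1.05, adjusted p = 0.0686) for *Ereg*, 1.28 (SE 0.40, adjusted p = 0.103) for *Hbegf*, 0.97 (SE 0.37, adjusted p = 0.168) for *Egfr*, 0.67 (SE 0.23, adjusted p = 0.135) for *Erbb2*, and 0.68 (SE 0.32, adjusted p = 0.258) for *Erbb3*. *Erbb4* and the neuregulins had negative values, -0.85 (SE 0.27, adjusted p = 0.108) for *Erbb4*, -0.74 (SE 0.57) for *Nrg1*, -0.12 (SE 0.44) for *Nrg2*, and -0.96 (SE 0.62) for *Nrg3*.

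The calls of this comparison depended on single libraries. Of all genes, 196 passed with all 11 PNs, 2 to 8 without 1079, 1202, 1206, 1053, 1179, 1191, or 1216, 65 without 1214, and 578 without 1203, and in each of these fits 0 of the 10 genes passed. Without 1198A, which had the highest *Erbb3*, *Btc*, and *Hbegf* of its group, 3 genes passed, *Erbb3* (log2, 1.12; adjusted p = 0.0120), *Btc* (log2, 2.62; adjusted p = 0.00644), and *Hbegf* (log2, 1.62; adjusted p = 0.0328), where 7.65% of all genes passed. Without the fast-growing PN 1071, *Ereg* passed (log2, 4.27; adjusted p = 0.0462), where 2.43% of all genes did, a call that adds no support. Levels of markers of other cell types are set beside these values. The fibroblast markers (7 genes) summed to 1262 to 5573 CPM in slow-growing PNs, 5490 to 10360 CPM in fast-growing PNs, and 1920 to 3719 CPM in controls, and the macrophage markers (6 genes) to 32.7 to 289, 177 to 486, and 94.1 to 366 CPM. Between fast- and slow-growing PNs the median log2 fold change was 1.11 for the fibroblast list, 1.69 for the macrophage list, -3.65 for the fat list, and -1.53 for the skeletal muscle list, and 0 genes of these lists passed. Their part in these differences was not tested.

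**Figure D3:**
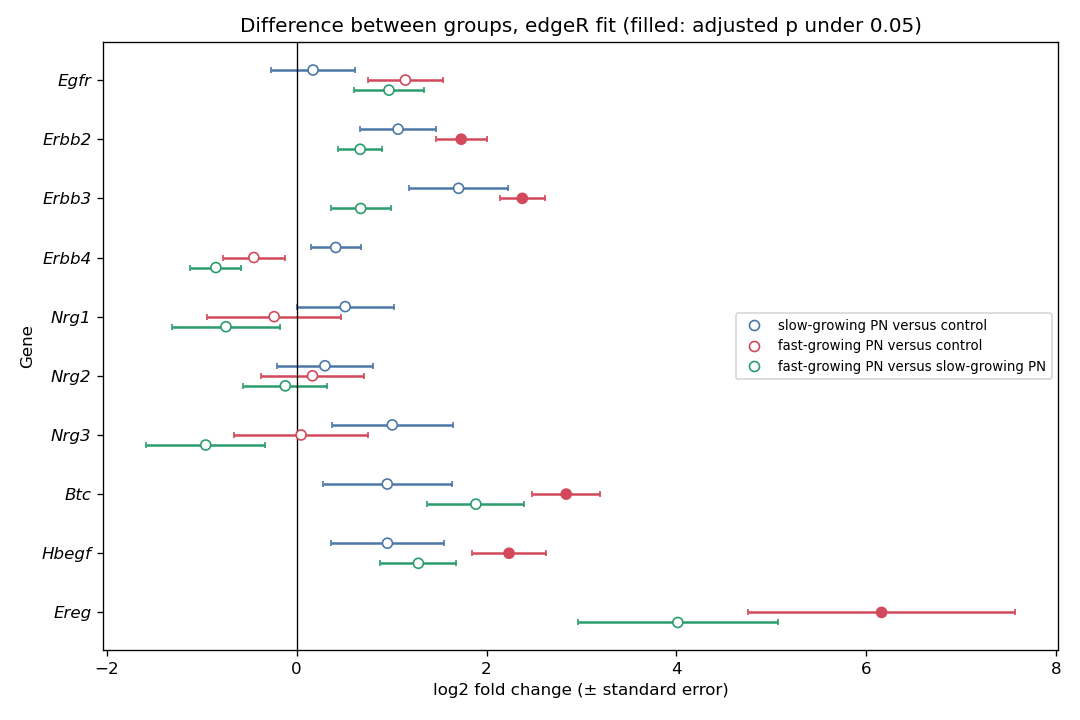
The log2 fold change (± SE) of each gene from the edgeR fits of slow-growing PNs versus controls, fast-growing PNs versus controls, and fast- versus slow-growing PNs, with filled symbols where the adjusted p was under 0.05. The 5 filled symbols are all in fast-growing PNs versus controls (*Erbb2*, *Erbb3*, *Btc*, *Hbegf*, and *Ereg*), where 31.4% of all genes were called. *Ereg* met the low-count filter only through its counts in fast-growing PNs, so its call adds no support. It has no value for slow-growing PNs versus controls because it was not tested there.

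Levels were compared between genes after division by the length of the longest coding transcript, in CPM per kilobase. Which transcripts were expressed was not measured, so the orders and shares that follow depend on this choice of length. For *Nrg1* the length used was 5415 bases, where its exons cover 10351 bases. By counts without this division, *Egfr* was above *Erbb3* in each control. In controls, *Egfr* measured 4.27 ± 1.83 (SD, n = 3), *Erbb3* 4.03 ± 1.70, *Erbb2* 3.47 ± 1.63, and *Erbb4* 0.54 ± 0.12. Within libraries *Egfr* and *Erbb3* were each above *Erbb2* in 3 of 3 controls, *Egfr* was above *Erbb3* in 2 of 3, and *Erbb4* was lowest in all 3. In fast-growing PNs, *Erbb3* (21.8 ± 1.59, SD, n = 6) was above *Erbb2* (12.0 ± 1.70) in 6 of 6 libraries, *Egfr* (9.80 ± 3.82) was above *Erbb2* in 1 of 6, and *Erbb4* (0.41 ± 0.14) was lowest in all 6. In slow-growing PNs, *Erbb3* (13.6 ± 8.55, SD, n = 5) was above *Erbb2* (7.54 ± 2.70) in 5 of 5 libraries, *Egfr* (4.98 ± 2.0) was above *Erbb2* in 1 of 5, and *Erbb4* (0.75 ± 0.16) was lowest in all 5.

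The make-up of the receptor transcripts is given as shares of their summed level, with no test. *Erbb3* made up 32.7% ± 1.79 (SD, n = 3) of the summed receptor level in the control group, 48.8% ± 8.97 (n = 5) in slow-growing PNs, and 50.0% ± 5.67 (n = 6) in the fast-growing group. *Egfr* made up 34.7% ± 1.03, 19.1% ± 6.93, and 21.7% ± 6.28, and *Erbb2* held near the same share, 27.9% ± 1.05, 29.1% ± 4.09, and 27.3% ± 1.59. The *Erbb4* share was 4.65% ± 1.09 in the control group, 3.04% ± 0.74 in slow-growing PNs, and 0.97% ± 0.39 in the fast-growing group. Its range in fast-growing PNs (0.37% to 1.56%) lay below the range in the other 2 groups. The summed receptor level was 12.31, 26.88, and 44.05 CPM per kilobase in the same order of groups, so a share can fall without a fall in level. The *Erbb4* levels of fast-growing PNs overlapped those of both other groups.

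Among the 6 ligands, *Nrg1* (42.9% ± 9.04) and *Hbegf* (34.9% ± 7.44) made up the largest shares in controls, and their spreads overlapped. *Hbegf* made up 61.3% ± 10.7 in fast-growing PNs, where *Nrg1* made up 15.6% ± 10.1, *Btc* 14.3% ± 3.54, *Nrg3* 5.95% ± 3.72, *Ereg* 2.21% ± 1.82, and *Nrg2* 0.65% ± 0.39. In slow-growing PNs the shares of *Hbegf* (39.5% ± 21.7) and *Nrg1* (37.2% ± 15.9) varied widely and overlapped. The neuron sums given above differed among these libraries too.

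**Figure D4:**
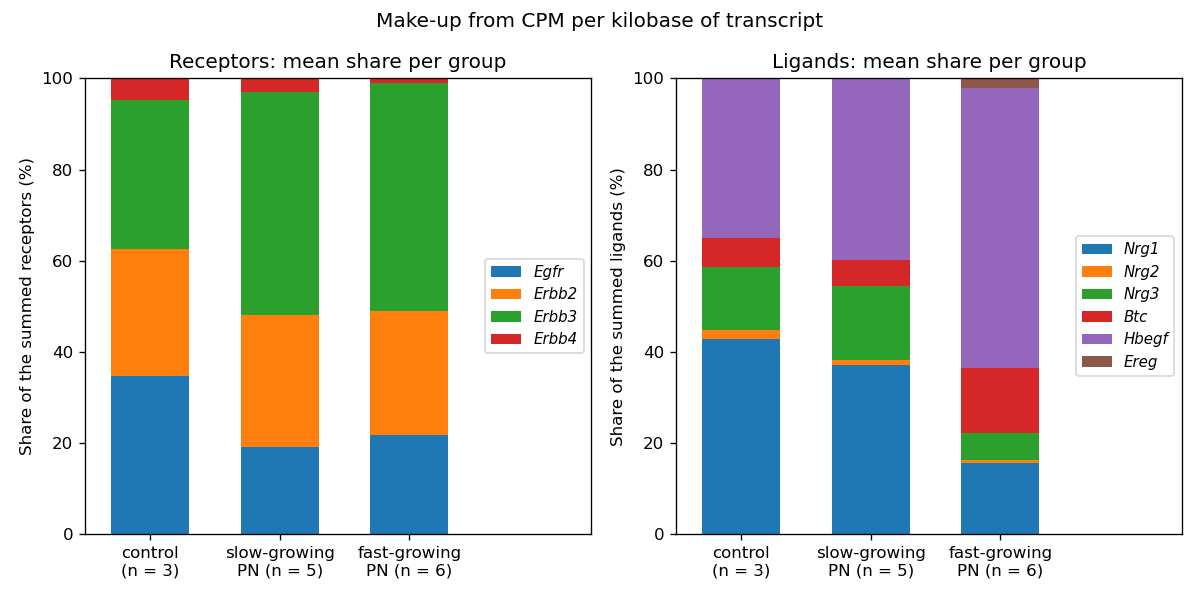
Mean share (%) of each gene in the summed level of the 4 receptors (left) and the 6 ligands (right), from CPM per kilobase, for 3 control, 5 slow-growing, and 6 fast-growing libraries. *Erbb3* takes 32.7% of the receptor sum in controls and 50.0% in fast-growing PNs, and *Hbegf* takes 34.9% and 61.3% of the ligand sum.

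The balance between the receptor of EGF-type ligands and the neuregulin receptor was tested as the log2 ratio of *Egfr* to *Erbb3* counts in the same library, which does not depend on the scaling of libraries. It was 0.87, 0.72, and 0.96 in DRG3, DRG4, and DRG5. It was -0.53, -1.44, 0.40, -1.30, and -0.35 in the slow-growing PNs 1079, 1198A, 1202, 1203, and 1206, and -1.56 to 0.35 (median, -0.43) in the fast-growing PNs. All 11 PNs were below all 3 controls. The mean was 1.41 lower in PNs than in controls by an exact two-sided permutation test (p = 0.00549, adjusted p = 0.0220 over 4 comparisons). The difference was -1.34 in fast-growing PNs (exact permutation p = 0.0119, the smallest that its 84 splits can give, adjusted p = 0.0238) and -1.49 in slow-growing PNs (exact permutation p = 0.0536, adjusted p = 0.0714). Fast- and slow-growing PNs differed by 0.15 (exact permutation p = 0.747). The slow-growing PN 1202 had the highest ratio of its group. Without it, the exact permutation p in slow-growing PNs versus controls was 0.0286, not adjusted for the 4 comparisons. That p is the smallest that the remaining libraries can give. Since 1202 was picked here by its own ratio, the lower p adds no support.

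**Figure D5:**
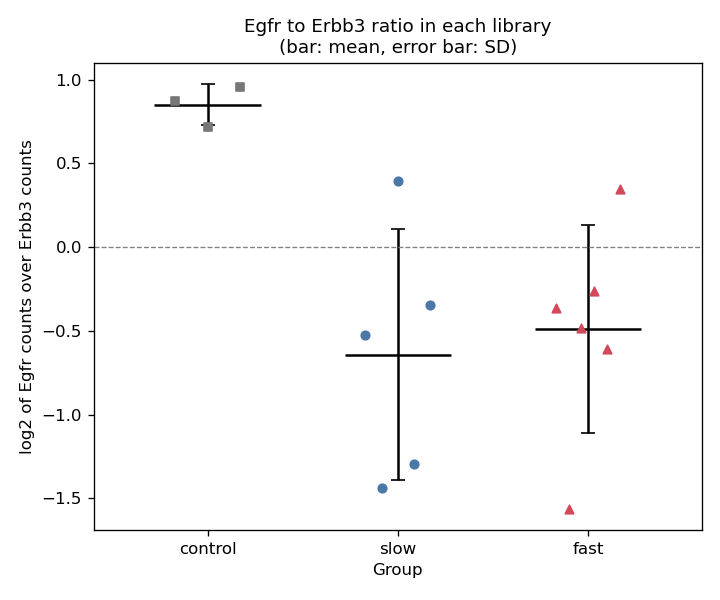
The log2 ratio of *Egfr* to *Erbb3* counts in each library by group, with the mean as a bar, the SD as an error bar, and a dashed line at equal counts. The 3 controls lie between 0.72 and 0.96, and all 11 PNs lie below them.

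Other genes of the pathway were counted from lists by role, and each count for PNs versus controls is to be read against the 26.3% of all genes that passed in that comparison. Of the 5 remaining EGF family ligands, 3 were tested, and *Egf* was lower in PNs than in controls (log2, -1.49; SE 0.42; adjusted p = 0.0186). In fast-growing PNs versus controls, *Egf* (log2, -1.62; adjusted p = 0.0173), *Tgfa* (log2, -1.11; adjusted p = 0.0190), and *Nrg4* (log2, -3.65; adjusted p = 0.00204) were all lower, beside 31.4% of all genes called in that comparison, and they are named with their values known. *Nrg4*, an *Erbb4* ligand known as a product of fat, measured 41.6 CPM in controls and 3.52 CPM in fast-growing PNs. Fat and skeletal muscle markers were lower there too, and their part in this difference was not tested. *Areg* and *Epgn* were too low to be tested.

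Of 8 genes that release ligands or steer the proteases, 2 were higher and 0 lower in PNs, a share near that of all genes (26.3%). They were *Adam19*, a metalloprotease that can cleave neuregulin precursors (log2, 1.36; SE 0.33; adjusted p = 0.00788), and *Bace1*, the protease that cuts axonal *Nrg1* (log2, 0.68; SE 0.24; adjusted p = 0.0495). *Adam19* averaged 77.0 CPM in controls against 201 CPM in PNs. Each PN was above each control. In slow-growing PNs alone, *Adam19* passed as well (log2, 0.83; adjusted p = 0.0481), as 1 of the 8, beside 11.3% of all genes. In fast-growing PNs versus controls 4 of the 8 were higher, beside 31.4% of all genes. *Adam19* was among them (log2, 1.62; adjusted p = 0.00047). *Bace1* passed in neither growth group (adjusted p = 0.094 in slow-growing and 0.108 in fast-growing PNs).

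Among 16 adaptors and effectors, 5 were higher and 2 lower in PNs, beside 26.3% of all genes called in either direction. The PI3K regulatory subunits *Pik3r1* (log2, 0.91; adjusted p = 0.00253) and *Pik3r3* (log2, 0.95; adjusted p = 0.0248), the adaptor *Shc1* (log2, 0.84; adjusted p = 0.0300), and the kinase *Src* (log2, 0.68; adjusted p = 0.0319) were higher. The docking protein *Gab1* (log2, 0.83; adjusted p = 0.0403) was the fifth, and the PI3K catalytic subunit *Pik3cb* (log2, -0.48; adjusted p = 0.0348) and *Stat5b* (log2, -0.50; adjusted p = 0.0410) were the 2 that were lower. These last 3 genes were named after their values were seen.

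Of 11 tested genes that restrain or recycle the receptors, 3 were higher and 1 was lower, beside the same 26.3%. *Socs5* (log2, 1.11; adjusted p = 0.0105) and *Socs4* (log2, 0.40; adjusted p = 0.0349), which can promote breakdown of *Egfr*, and the deubiquitinase *Usp8* (log2, 0.48; adjusted p = 0.0226) were higher, and *Errfi1*, an inhibitor of the *Egfr* kinase, was lower (log2, -0.72; adjusted p = 0.0442). The last list held 5 transcription factors that act downstream of axonal neuregulin in Schwann cells, and 2 were higher, again beside 26.3% of all genes. They were *Pou3f1*, a factor of promyelinating Schwann cells (log2, 2.56; SE 0.61; adjusted p = 0.00710), and *Sox10*, which marks the lineage (log2, 1.29; SE 0.39; adjusted p = 0.0242). The median log2 fold changes of the 5 lists, in the order given, were -1.49, 0.59, 0.19, 0.36, and 0.63, beside 0.10 for all genes.

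In the Schwann cell list, 4 of 12 markers were higher in PNs and 0 lower, with a median log2 fold change of 1.02, where 26.3% of all genes were called. In fast-growing PNs versus controls the counts were 5 higher and 0 lower, where 31.4% of all genes were called. These values stand beside those of *Erbb3* and *Erbb2*, which Schwann cells express, and their part in the receptor levels was not tested.

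The genes whose levels moved most like each receptor within the groups were found from log2(CPM + 1) after subtraction of each group's mean, over 14 libraries and 16282 other genes. For *Erbb3* they were *Lgi4*, a protein secreted by Schwann cells (Pearson r = 0.97), *Cyp2j9* (0.95), and *Rasgef1c* (0.94). For *Erbb2* they were *Pcdhgb4* (0.97), *Cadm4*, an adhesion protein of Schwann cells (0.96), and *Lepre1* (0.95), and for *Egfr* they were *Zfp609* (0.96), *Vit* (0.96), and *Rgma* (0.95). The likeness for *Erbb4* was lower, with *Nsun5* (0.90), *Tmem181b-ps* (0.87), and *AA388235* (0.86). These are the highest of many correlations across libraries that share depth and tissue content, and they are a description only.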

How the data were processed

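Total RNA from frozen PNs and control DRGs/nerves was amplified by the authors with the Ovation RNA-Seq System v2. Reads were aligned by the authors to mm10 with TopHat2 (2.0.9), and the deposited counts per gene came from featureCounts (1.5.2), without normalization. Whether counting used strand was not given in the sources used here. A deposited log2 table of TMM-normalized values was not used.

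Counts were analyzed in R 4.3.3 with edgeR 4.0.16: filterByExpr, TMM factors, quasi-likelihood test, and Benjamini-Hochberg adjustment over all genes tested, with an adjusted p under 0.05 as a call and only the libraries of a comparison in its fit. Standard errors are the log2 fold change divided by the square root of the F statistic. Levels are CPM scaled by TMM factors over 14 libraries. The ratio of *Egfr* to *Erbb3* used 0.5 added to each count. Limma 3.58.1 and DESeq2 1.42.0 gave alternatives, and fits were repeated without each library. Positions, lengths, and sequences came from GENCODE M21, in which 23700 of 24062 genes were matched by symbol, 950 of them through an older one. Plots were made in Python 3.11.15 (matplotlib 3.10.9).

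All 10 genes were named in every comparison. From the pathway lists, the genes that passed in PNs versus controls were named, at most 4 per list by lowest p, and for each receptor the 3 genes with the most similar levels. Named beyond this rule, after their values were seen, were *Gab1*, *Pik3cb*, and *Stat5b*. The values of *Egf*, *Tgfa*, and *Nrg4* in fast-growing PNs, and those of *Adam19* and *Bace1* in each growth group, were also named in this way. The members and the lists were chosen with earlier results of these data known. No pair of libraries held identical counts. At the depth of these libraries a floor of 3 counts is 0.167 to 0.313 CPM, and counting intervals do not cover amplification.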

Additional observations from a re-analysis of the deposited data

Results flagged for a closer look

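Among 20 sets of values (10 genes in slow-growing and in fast-growing PNs), 3 libraries lay far from the rest of their group by Dixon's criterion, which marks about 1 in 20 groups by chance. *Nrg2* was 2.11 CPM in the slow-growing PN 1203, where the nearest library was 1.06 CPM. *Btc* was 40.3 CPM in the fast-growing PN 1191, where the nearest was 24.3 CPM. *Ereg* was 1.25 CPM in the slow-growing PN 1206, where the nearest was 0.23 CPM. The first 2 are the libraries with the highest (14880 CPM) and the lowest (35.7 CPM) sums of sensory neuron markers.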

How the results depend on the processing

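In PNs versus controls, 3 members were called (26.3% of all genes), 5 with DESeq2 (4 without *Ereg*, beside 31.8% of all genes), and 2 with limma-voom (26.4%). With muscle and fat scores as covariates 0 were called, where 429 of all genes were. With 1 library left out 1 to 4 were called (1 without DRG4 or without DRG5), where 12.5% to 29.4% of all genes were. In slow-growing PNs versus controls 0 were called (11.3% of all genes), and 2 with DESeq2 (22.5%). With all 14 libraries in 1 fit 2 were called, where 3280 of all genes were, against 1769 in the main fit. With 1 library left out 0 to 2 were called, where 3.74% to 15.3% of all genes were. In fast-growing PNs versus controls 5 were called (31.4% of all genes), 6 with DESeq2 (36.6%), 4 with limma-voom (29.9%), and 0 with the covariates. With 1 library left out 5 to 6 were called, where 20.4% to 32.1% of all genes were. Apart from those with limma-voom and with the covariates, these counts include *Ereg*, whose calls add no support. Between fast- and slow-growing PNs 0 were called (1.27% of all genes), and 4 with DESeq2 (3 without *Ereg*, beside 10.3% of all genes). With 1 library left out 0 to 3 were called, where 0.0128% to 7.65% of all genes were. The ratio of *Egfr* to *Erbb3* in slow-growing PNs versus controls was -1.75 to -1.29 with 1 library left out, and that between fast- and slow-growing PNs was -0.046 to 0.41.

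With the covariates, the log2 fold change reversed in PNs versus controls for *Egfr* (-0.44), *Btc* (-0.22), *Hbegf* (-0.039), and *Ereg* (-2.05), in slow-growing PNs for *Nrg1* (-0.053) and *Nrg2* (-0.21), and in fast-growing PNs for *Egfr* (-1.04), *Erbb4* (1.02), and *Nrg1* (0.70). With limma-voom it reversed for *Erbb4* in PNs (-0.11) and *Nrg3* in fast-growing PNs (-0.22). With trends in transcript length and GC removed, an alternative chosen after seeing the data, it reversed for *Erbb4* (-0.21) and *Nrg1* (-0.064) in PNs and *Egfr* in slow-growing PNs (-0.075). The cause was not tested. With 1 library left out, the ranges that crossed 0 were -0.060 to 0.25 for *Erbb4* and -0.17 to 0.83 for *Nrg1* in PNs, -0.032 to 0.57 for *Egfr* and -0.011 to 0.59 for *Nrg2* in slow-growing PNs, -0.56 to 0.36 for *Nrg1*, -0.12 to 0.45 for *Nrg2*, and -0.19 to 0.69 for *Nrg3* in fast-growing PNs, and -0.34 to 0.22 for *Nrg2* between fast- and slow-growing PNs. None of these genes was called in the comparison named, apart from *Hbegf* in PNs. Of the alternative values of single genes, 604 kept direction and side of the threshold, 20 lost a call, 24 gained one, and 37 reversed. Depth limits *Ereg* and *Nrg2*, which lay near 1 CPM or below in most libraries.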
